A study of Mus musculus with 10 samples.

Results

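Interferons are secreted proteins that signal through cell-surface receptors, Janus kinases and STAT transcription factors. They switch on a large set of antiviral genes, many of which carry an interferon-stimulated response element (ISRE) near their start, and they raise the machinery that loads peptides onto MHC class I molecules for display to T cells. Mouse embryonic stem (ES) cells are known for a weak interferon response and for low surface MHC class I. The 37 genes described here were chosen by name: 27 are interferon-induced genes and 10 act in antigen presentation. All 37 were found on the array, by 48 probes, among 28193 genes that passed the filter on dim probes. Each member is shown by its probe with the highest mean signal, and each such probe was well above background on all 10 arrays, so the filter removed no member.

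Gene expression was measured on 1-colour Agilent mouse arrays in 4 trisomic ES cell lines and in diploid cells, with 2 biological replicates per group. The lines carried 3 copies of chromosome 6 (Ts6, passages 9 and 18), chromosome 8 (Ts8, passages 10 and 13), chromosome 11 (Ts11, passages 8 and 11) or chromosome 15 (Ts15, passages 11 and 14), with the strain label 129 S7/SvEvBrd. The diploid cells were AB1, a male ES line (WT, passages 18 and 20). Each trisomy is represented by 1 line, and the labels name no interferon or virus treatment. The trisomic arrays were of lower passage than the WT arrays except Ts6 replicate 2, which shared passage 18 with WT replicate 1. All cells grew on γ-irradiated SNL76/7 feeder cells, a fibroblast line, which were reduced by settling before RNA extraction, so that the RNA may hold feeder transcripts. In such bulk RNA, fewer cells of a type and less RNA per cell cannot be told apart.

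Ts6, Ts8, Ts11 and WT shared slide 1, and both Ts15 arrays were on slide 2, so that for Ts15 the line and the slide cannot be told apart. On slide 1 each group filled its own slide column. The share of spots well above background ran from 71.4% to 80.2% per array. All 12 ES cell markers were above background on every array. In Ts8, 11 of the 12 were below WT (median difference -0.17), and Tfcp2l1, a pluripotency factor, was called lower (-0.64, adjusted p = 0.035). Of 25 fibroblast markers 24 passed the filter, 21 to 24 of them above background per array, and their summed signal, in units of the array's 75th percentile, was 91.0 and 103 in the Ts6 line. For Ts8 it was 102 and 94.0, for Ts11 111 and 100, and for Ts15 125 and 130, against 109 and 113 in WT. Of the leukocyte markers 10 were tested, with summed signals of 40.2 to 59.2. On the log2 scale relative to the 75th percentile, Ptprc, the pan-leukocyte marker CD45, lay between -4.02 and -3.44, and the myeloid markers Itgam between 4.87 and 5.48, Cd68 between 1.52 and 2.63 and Csf1r between 0.88 and 2.53. Against WT, Csf1r was called lower in Ts6 (-1.15) and Ts11 (-0.89), and Cd68 in Ts6 (-0.38) and Ts8 (-0.75). The 2 genes went opposite ways in Ts8, where Csf1r was above WT (0.38), and in Ts11, where Cd68 was (0.30), neither rise called. Leukocyte markers above WT numbered 2 (Ts6), 4 (Ts8), 2 (Ts11) and 6 (Ts15) of the 10. The part of these markers in the results was not tested.

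The promoters of several members hold matches of the element through which interferon is known to act. Promoters of some of the members called below are given here. Of these, Oas1a was called between lines and not against WT. The sequences are the 250 bases before the annotated start, from RefSeq (GRCm38.p6), 5′ to 3′ on the strand of the gene. Capitals mark matches of the ISRE core (GAAA, any 2 bases, GAAA) or of the STAT palindrome (TTC, any 3 bases, GAA), searched on both strands. Overlapping matches run together.
Ifit3, chr19:34583279-34583528, plus strand: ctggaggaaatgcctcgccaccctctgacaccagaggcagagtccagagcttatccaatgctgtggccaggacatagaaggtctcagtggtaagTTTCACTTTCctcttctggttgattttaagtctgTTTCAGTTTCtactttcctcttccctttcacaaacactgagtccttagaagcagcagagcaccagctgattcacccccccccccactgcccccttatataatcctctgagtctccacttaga
Rsad2, chr12:26456453-26456702, minus strand: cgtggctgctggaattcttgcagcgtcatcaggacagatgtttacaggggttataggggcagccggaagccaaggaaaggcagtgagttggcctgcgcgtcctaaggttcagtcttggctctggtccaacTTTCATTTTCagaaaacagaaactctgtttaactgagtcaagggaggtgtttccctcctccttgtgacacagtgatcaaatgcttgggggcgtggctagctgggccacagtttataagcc
Oas1a, chr5:120907526-120907775, minus strand: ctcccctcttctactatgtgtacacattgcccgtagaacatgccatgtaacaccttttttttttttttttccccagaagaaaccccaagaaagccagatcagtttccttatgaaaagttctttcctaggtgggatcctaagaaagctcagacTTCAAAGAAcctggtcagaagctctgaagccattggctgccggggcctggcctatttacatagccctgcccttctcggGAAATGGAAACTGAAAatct
Gbp2, chr3:142620413-142620662, plus strand: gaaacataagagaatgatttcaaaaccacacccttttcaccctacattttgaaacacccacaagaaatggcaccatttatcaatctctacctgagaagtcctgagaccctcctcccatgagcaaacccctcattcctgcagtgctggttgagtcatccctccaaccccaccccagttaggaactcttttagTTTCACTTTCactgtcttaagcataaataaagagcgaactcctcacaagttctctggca
Psmb8, chr17:34197945-34198194, plus strand: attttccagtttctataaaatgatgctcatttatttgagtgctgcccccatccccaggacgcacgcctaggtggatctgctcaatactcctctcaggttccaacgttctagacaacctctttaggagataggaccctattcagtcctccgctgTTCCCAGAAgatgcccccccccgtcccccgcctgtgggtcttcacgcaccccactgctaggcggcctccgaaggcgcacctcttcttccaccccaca
Tap1, chr17:34187306-34187555, plus strand: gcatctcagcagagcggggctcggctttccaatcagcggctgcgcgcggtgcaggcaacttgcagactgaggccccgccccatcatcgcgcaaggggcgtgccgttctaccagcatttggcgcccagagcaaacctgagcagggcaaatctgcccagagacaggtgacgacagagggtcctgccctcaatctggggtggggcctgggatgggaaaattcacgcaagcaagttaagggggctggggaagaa

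The ISRE core matches began 156 and 122 bases before the start of Ifit3, 120 before that of Rsad2, 59 before that of Gbp2, and 20 and 14 before that of Oas1a. The Tap1 window is also most of the Psmb9 promoter, since the genes lie head to head with 225 bases between their starts, and it holds neither motif. Irf7 and Xaf1 were also called against WT, and their promoters, not printed above, hold neither motif. The RefSeq table held promoters of 31 of the 37 members, and Mx1, Mx2, Dhx58, Usp18, Tap2 and Nlrc5 were not matched. Searched over 300 bases, from 250 before to 50 after the start, the ISRE core was found in 13 of 23 interferon-induced members (56.5%) and in 1 of 8 antigen presentation members (12.5%, B2m), against 3.99% of 27025 genes. The STAT palindrome was found in 7 of 23 and in 1 of 8 (Psmb8), against 9.55% of genes. A match describes these letters and not a bound site.

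The medians of the members had different signs in different trisomic lines, lowest in Ts8 and highest in Ts15. Values below are log2 signals relative to the array's 75th percentile, and a level compares 1 probe between arrays, not 1 gene with another. Ts8 had the lowest mean of the 5 groups in 20 of 27 interferon-induced members (74.1%), against 17.98% of all genes tested, and in 4 of 10 antigen presentation members. Ts6 was lowest in as many antigen presentation members, 4 of 10. Ts15 had the highest mean in 18 of the 37 members (48.6%), against 22.002% of all genes tested. Relative to WT, the interferon-induced members had a median difference of 0.24 in the Ts6 line, of -0.26 in Ts8, of 0.12 in Ts11 and of 0.25 in Ts15, where the medians of all genes lay between -0.01 and 0.04. For the antigen presentation members it was -0.24 in the Ts6 line, -0.28 in Ts8, -0.08 in Ts11 and 0.24 in Ts15.

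**Figure D1:**
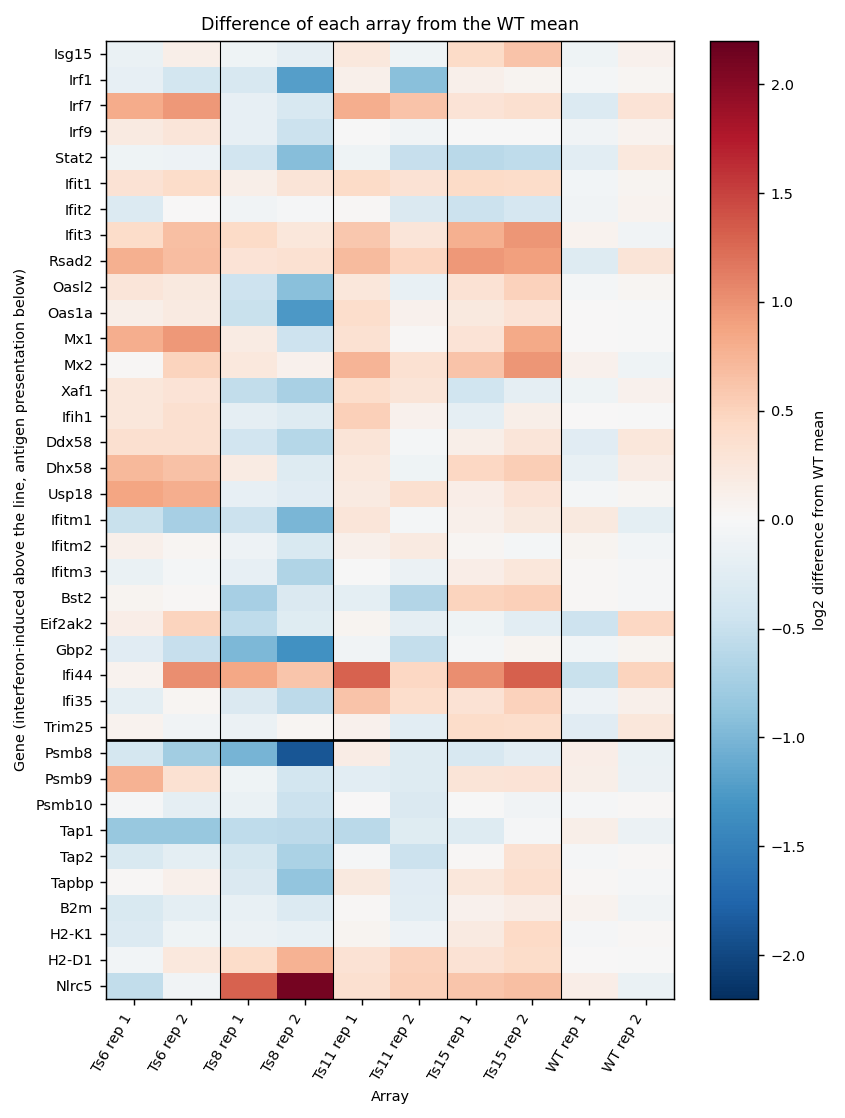
Log2 difference of every array (columns) from the WT mean for the 37 members (rows), red above and blue below WT, with the 27 interferon-induced genes above the line and the 10 antigen presentation genes below it. Both Ts8 columns are mostly blue, with Nlrc5, H2-D1 and Ifi44 among the exceptions, and both Ts15 columns are mostly red.

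The fibroblast markers moved with part of this pattern. Relative to WT their median difference was -0.37 in the Ts6 line (22 of 24 below WT), -0.22 in Ts8 (21 of 24), -0.18 in Ts11 (17 of 24) and 0.16 in Ts15 (5 of 24). The median of the antigen presentation members had the same sign as that of the fibroblast markers in every line. The interferon-induced median had that sign in Ts8 and Ts15. In Ts6 and Ts11 it was above WT while the fibroblast median was below it. Sparc (0.55) and Acta2 (0.65), both fibroblast markers, rose in Ts15, and Pdgfra (-0.70) fell in Ts6 (limma, adjusted p under 0.05). Col5a2 was also called lower in Ts6 (-1.20), with 1 of 2 Ts6 arrays above background. The part of feeder RNA in the results below was not tested. The arrays of a group also differed from each other: replicate 2 was the lower one in 29 of 37 members in Ts8 and in 32 of 37 in Ts11, against 53.3% and 62.5% of all genes, and in 7 of 37 in Ts15.

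**Figure D2:**
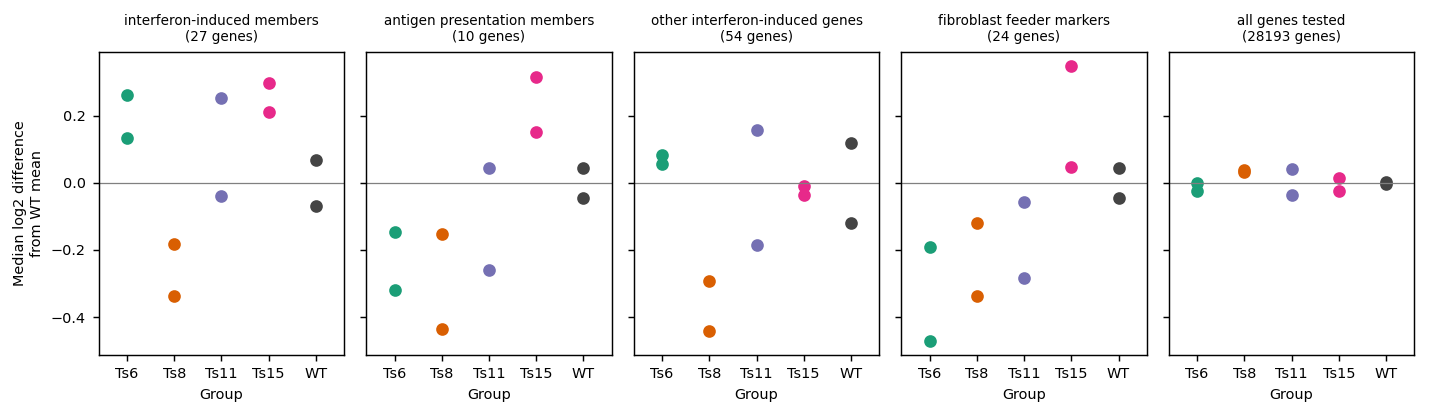
Median log2 difference from the WT mean (vertical axis) on each of the 10 arrays (points), for the 2 groups of members, a list of other interferon-induced genes, fibroblast feeder markers and all genes tested. Both Ts8 arrays lie below both WT arrays in the first 4 panels, and both Ts15 arrays lie above them in both panels of members.

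A call below is an adjusted p under 0.05 over all genes tested, from limma's moderated test on all 10 arrays with n = 2 per group. The moderated F-test over the 5 groups called 15 of the 37 members (40.5%), against 28.7% of all genes. Of these 11 were interferon-induced and 4 belonged to antigen presentation. The lowest adjusted p was that of Usp18 (adjusted p = 0.0041), followed by Xaf1 (adjusted p = 0.0068) and Nlrc5 (adjusted p = 0.0096). The count was 6 or 7 when any 1 of the Ts6 or Ts15 arrays or Ts8 replicate 2 was left out, 9 without the filter on dim probes and 7 on slide 1 only.

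In Ts6, 4 of the 37 members were called against WT, which is 10.8%, where 9.04% of all genes were called. Of these, 3 interferon-induced genes rose (4.44% of all genes were called higher) and Tap1, of antigen presentation, fell (4.6% of all genes were called lower). Usp18, which encodes the protease that removes ISG15 from proteins and dampens the type I interferon receptor, had 1.10 and 1.03 in Ts6, against 0.19 and 0.26 in WT. Its Ts8 arrays had 0.05 and -0.01, its Ts11 arrays 0.42 and 0.58, and its Ts15 arrays 0.37 and 0.52. Usp18 lies on chromosome 6, the chromosome carried in 3 copies, and it was the only member there. The Ts6 arrays were separate from those of every other group, and the difference of 0.84 ± 0.11 (SE) was a 1.79-fold rise (adjusted p = 0.0043), with a 95% interval of 0.58 to 1.09 beside the 0.58 that a 3 to 2 copy ratio gives on the log2 scale.
Irf7, the transcription factor that amplifies type I interferon production, had -1.70 and -1.55 in Ts6, against -2.81 and -2.21 in WT. The rise of 0.88 ± 0.19 (adjusted p = 0.029) was 1.85-fold, and its WT arrays differed more from each other than its Ts6 arrays did. The Ts8 arrays had -2.68 and -2.87, those of Ts11 -1.72 and -1.89, and those of Ts15 -2.22 and -2.16, so that Ts11 lay near Ts6 (difference from WT 0.71, adjusted p = 0.064). Rsad2, which encodes the antiviral enzyme viperin, had -2.66 and -2.76 in Ts6, against -3.72 and -3.16 in WT, a rise of 0.73 ± 0.18 (adjusted p = 0.046). Its Ts11 arrays had -2.75 and -2.97.
Tap1, 1 of the 2 subunits of the transporter that brings peptides into the endoplasmic reticulum, had -3.40 and -3.41 in Ts6, against -2.45 and -2.69 in WT. Its Ts8 arrays had -3.13 and -3.15, its Ts11 arrays -3.16 and -2.83, and its Ts15 arrays -2.84 and -2.59. In Ts6 it fell by 0.84 ± 0.15, to 0.560 of the WT level (adjusted p = 0.016). Over 14 alternatives in the processing, Usp18 kept its call in 14, Tap1 in 10, Irf7 in 7 and Rsad2 in 6, and the count of calls fell to 1 without WT replicate 1 or either Ts6 array.

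Psmb9, a catalytic subunit of the immunoproteasome, shares its promoter region with Tap1 but showed another order of the groups. The Ts6 arrays had 0.50 and 0.06, the Ts8 arrays -0.37 and -0.67, the Ts11 arrays -0.50 and -0.55, and the Ts15 arrays 0.01 and 0.02, against -0.15 and -0.40 in WT. Ts6 was highest for Psmb9 and lowest for Tap1. The Ts6 difference of Psmb9 from WT was 0.55 (adjusted p = 0.096), and Ts6 exceeded Ts8 by 0.80 (adjusted p = 0.025) and Ts11 by 0.80 (adjusted p = 0.036). The difference between the responses of the 2 genes was not tested.

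**Figure D3:**
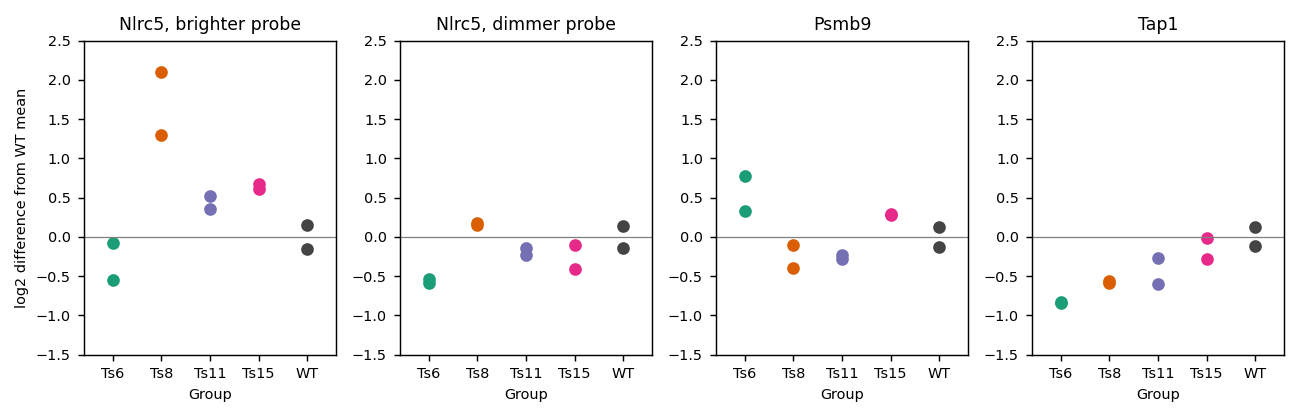
Log2 difference from the WT mean (vertical axis) on each array (points) for the 2 probes of Nlrc5 and for Psmb9 and Tap1, by group. Ts8 is the highest group for both Nlrc5 probes, widely for the brighter one and only narrowly for the dimmer one. Ts6 is the highest group for Psmb9 and the lowest for Tap1.

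In Ts8, 4 of the 37 members were called against WT, where 3.49% of all genes were called, 2.06% higher and 1.43% lower. Of the members 3 fell and 1 rose. None of the 4 was called when the fit held slide 1 only or only the Ts8 and WT arrays, without the filter on dim probes, with passage as a covariate, or without either WT array or Ts8 replicate 2, and 8 members were called without Ts8 replicate 1. Calls over all genes moved the same way, to 0 to 349 in the fits where none was called and 1768 without Ts8 replicate 1, against 984. Psmb8, another immunoproteasome subunit, had -2.003 and -2.86 in Ts8, against -0.83 and -1.12 in WT. Both Ts8 arrays were below every other array, and the difference was -1.46 ± 0.29 (adjusted p = 0.044), although the Ts8 arrays differed widely from each other. Ts6 arrays had -1.36 and -1.73, Ts11 arrays -0.81 and -1.26, and Ts15 arrays -1.32 and -1.20.
Gbp2, an interferon-γ-induced guanylate-binding GTPase, had -0.41 and -0.77 in Ts8, against 0.50 and 0.64 in WT, and no array of another group reached down to the Ts8 values. It fell by 1.16 ± 0.19 (adjusted p = 0.03), to 0.448 of the WT level. The other lines had 0.31 and 0.06 (Ts6), 0.50 and 0.04 (Ts11), and 0.52 and 0.63 (Ts15).
Xaf1, an interferon-induced antagonist of the caspase inhibitor XIAP, had 1.36 and 1.19 in Ts8, against 1.80 and 2.00 in WT. Levels were 2.15 and 2.21 in Ts6, 2.30 and 2.18 in Ts11, and 1.47 and 1.70 in Ts15, where Xaf1 also lay below WT (-0.32, adjusted p = 0.18). In Ts8 it fell by 0.63 ± 0.13 (adjusted p = 0.046), and its other probe gave -1.05.

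Nlrc5, the transactivator of MHC class I genes, lies on chromosome 8 and was the only member called higher in Ts8. Its brighter probe (chr8:97051105-97051164, mm9) had -1.32 and -0.52 in Ts8, against -2.47 and -2.78 in WT. The rise of 1.70 ± 0.27 was 3.26-fold (adjusted p = 0.028), and both Ts8 arrays were above every other array. The same probe had -3.17 and -2.70 for Ts6, -2.27 and -2.10 for Ts11, and -2.01 and -1.96 for Ts15. The dimmer probe (chr8:97030478-97030624, mm9) had -4.84 and -4.83 in Ts8, against -5.14 and -4.85 in WT, a difference of 0.16. Both Ts8 arrays were above every other array on the dimmer probe too, but only narrowly above WT replicate 2. The 2 probes carry the same transcript accession and gave opposite signs in Ts11 and Ts15, so the size of the rise rests on 1 probe. With the mean of both probes it was 0.93 (adjusted p = 0.0309). None of the class I chains was called in Ts8: H2-D1, a classical heavy chain, differed by 0.58 (adjusted p = 0.079), H2-K1, the other classical heavy chain, by -0.15, and B2m, the light chain, by -0.23. Probes of H2-K1 and H2-D1 may share signal with related class I genes.

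The other 2 members on chromosome 8 were not called in Ts8. Bst2, which encodes tetherin and holds budding viruses at the cell surface, had 2.08 and 2.49 in Ts8, against 2.83 and 2.79 in WT (difference -0.52, adjusted p = 0.12). Psmb10, another immunoproteasome subunit, differed by -0.31 (adjusted p = 0.26). The shown Ifitm1 probe is placed on chromosome 8 by the array files, while RefSeq has the gene on chromosome 7, as the file has the other probe.

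In 23 of 37 members (62.2%) both Ts8 arrays were below both WT arrays, against 24.4% of all genes, and in 7 of 37 both were above, against 31.1% of all genes. Several probes were tested for 9 members, and in Ts8 all 9 had their probes on the same side of WT. The probes disagreed in sign for 2 of the 9 in Ts6 (Isg15 and Trim25), for 3 in Ts11 (Trim25, H2-K1 and Nlrc5) and for 3 in Ts15 (Irf1, Ifitm1 and Nlrc5).

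In Ts11, none of the 37 members was called against WT by limma, where 8.13% of all genes were called (4.03% higher and 4.1% lower), and 11 (29.7%) had an unadjusted p under 0.05, against 25.3% of all genes. The authors' deposited series table, tested the same way, gave 3 calls, and the scanner values without WT replicate 2 gave 2. On chromosome 11 lie 5 members, and their Ts11 differences from WT were 0.50 for Ifi35 (adjusted p = 0.1), 0.34 for Xaf1, 0.07 for Dhx58, -0.06 for Trim25 and -0.41 for Irf1. Ifi35, an interferon-induced leucine zipper protein, had 1.14 and 0.89 in Ts11, against 0.41 and 0.62 in WT, without overlap. It had 0.31 and 0.56 in Ts6, 0.20 and -0.06 in Ts8, and 0.83 and 1.02 in Ts15. Irf1, a transcription factor induced by interferon-γ, had 1.38 and 0.35 in Ts11, against 1.22 and 1.32 in WT, so its 2 Ts11 arrays lay on either side of WT. The highest member in Ts11 was Ifi44, a gene named for its induction by interferon, with -0.31 and -1.16 in Ts11, against -2.09 and -1.12 in WT. Its replicates were far apart in Ts6 as well, at -1.53 and -0.59, and less so in Ts8, at -0.76 and -0.99. That difference of 0.87 did not pass the test (adjusted p = 0.25). The lowest was Bst2, with 2.59 and 2.16 in Ts11, and a difference of -0.43 (adjusted p = 0.17).

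In Ts15, 2 of the 37 members were called against WT, where 7.43% of all genes were called (2.58% higher and 4.86% lower), and both rose. Ifit3, which binds viral RNA together with IFIT1, had -0.23 and -0.04 in Ts15, against -0.94 and -1.09 in WT. The rise of 0.88 ± 0.16 was 1.84-fold (adjusted p = 0.019), and both Ts15 arrays were above all others. Ts6 arrays had -0.61 and -0.36, Ts8 arrays -0.60 and -0.77, and Ts11 arrays -0.42 and -0.76, all above both WT arrays. Rsad2 had -2.49 and -2.54 in Ts15, a rise of 0.93 ± 0.18 (adjusted p = 0.024). Its levels in the order of the groups were Ts15, Ts6, Ts11, Ts8 and WT. The Ts8 arrays (-3.13 and -3.10) were only narrowly above WT replicate 2 (-3.16), while WT replicate 1 had -3.72. Ts6 and Ts15, both called for Rsad2, were compared with the same 2 WT arrays. Of 13 alternatives, 8 kept each of the 2 calls in Ts15, and leaving out WT replicate 1 or 2 left 1 member called and leaving out a Ts15 array 0. No member lies on chromosome 15.

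In 23 of 37 members both Ts15 arrays were above both WT arrays (62.2%, against 27.2% of all genes), and in 4 both were below, against 30.0% of all genes. The highest difference was that of Ifi44 (1.17, adjusted p = 0.14), with -0.58 and -0.29 in Ts15. The lowest was that of Stat2, a subunit of the ISRE-binding complex that also holds IRF9, with 0.15 and 0.18 in Ts15, against 0.50 and 0.97 in WT (-0.57, adjusted p = 0.17). Its Ts6 arrays had 0.65 and 0.62, its Ts8 arrays 0.31 and -0.21, and its Ts11 arrays 0.64 and 0.23.

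**Figure D4:**
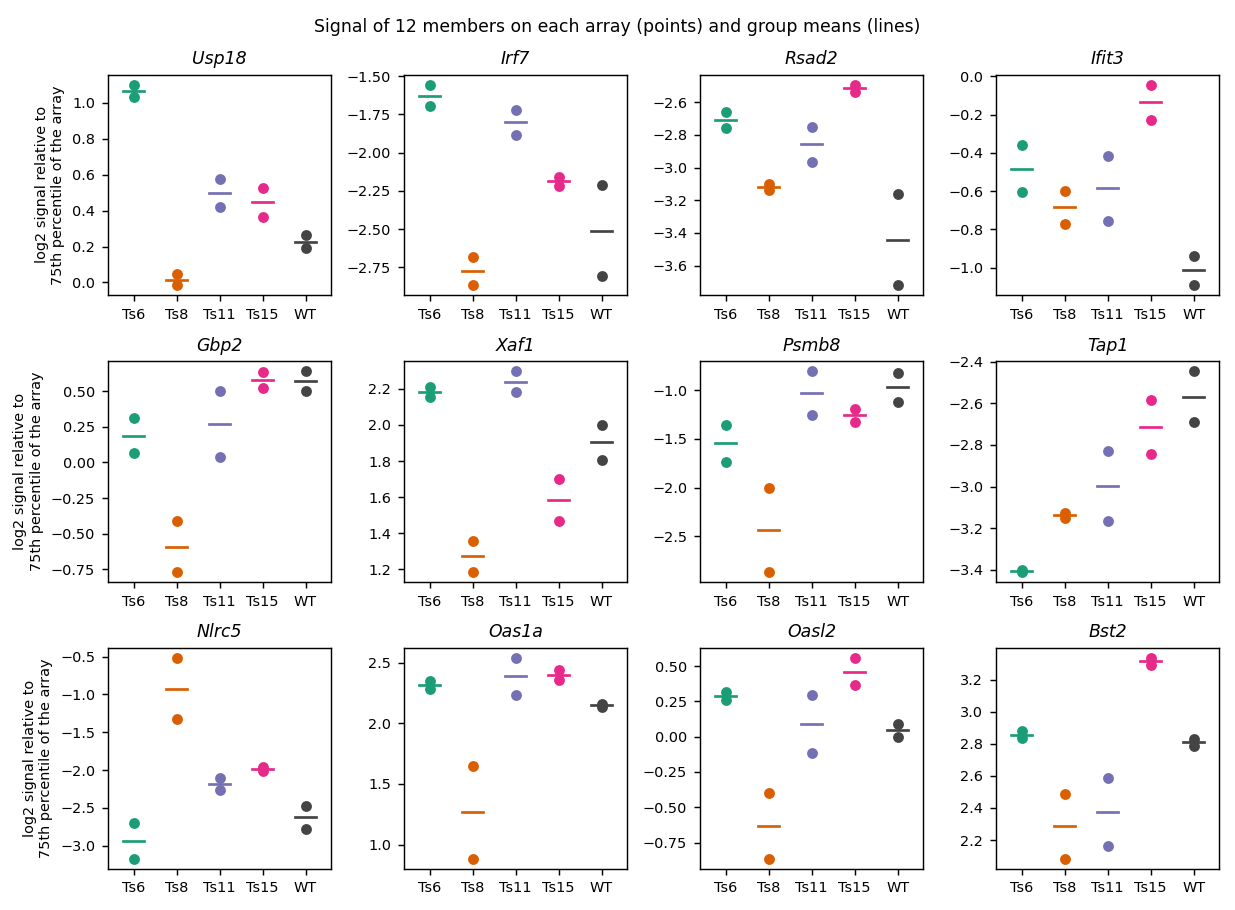
Log2 signal relative to the 75th percentile of the array (vertical axes, a separate scale per gene) for 12 members, with 1 point per array and a line at the mean of each group. Ts6 stands apart for Usp18, and Ts8 is the lowest group for Irf7, Gbp2, Xaf1, Psmb8, Oas1a and Oasl2 and the highest for Nlrc5.

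Pairs of trisomic lines were compared in the same fit. Over the 6 pairs of lines 45 of 222 member comparisons were called (20.3%), against 13.2% of all gene comparisons, in 22 members. Ts8 was part of 35 of the 45, lower in 32 and higher in 3, and the 3 were all Nlrc5. Of the 32, 26 were interferon-induced. Of all genes, 13.7% were called between Ts6 and Ts8, 7.81% between Ts8 and Ts11 and 17.2% between Ts8 and Ts15. Ts8 was the lower line in 6.28%, 3.3% and 5.57% of all genes in these pairs. Pairs without Ts8 had 7.27% to 18.2% of all genes called. Pairs that share Ts8 share its 2 arrays, so these counts are not independent. The count was 16 without Ts8 replicate 2, 20 and 23 without Ts6 replicate 1 or 2, and 20 and 17 without Ts15 replicate 1 or 2. On slide 1 only, which holds 3 of the pairs, it was 14, and without the filter on dim probes 24.

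Between Ts8 and Ts15, on different slides, 15 of the 37 members were called (40.5%), where 17.2% of all genes were called, 11.6% higher and 5.57% lower. Ts8 was lower in 14 of them, 10 interferon-induced and 4 of antigen presentation. Both Ts8 arrays were below both Ts15 arrays in 32 of 37 members (86.5%), against 30.0% of all genes. The members reached from antiviral effectors to antigen loading. Oas1a, an oligoadenylate synthetase that activates RNase L, had 1.65 and 0.88 in Ts8, against 2.36 and 2.45 in Ts15 (-1.14, adjusted p = 0.018). Its Ts6 arrays had 2.28 and 2.35, its Ts11 arrays 2.54 and 2.24, and its WT arrays 2.16 and 2.13, so Ts8 alone was low. Oasl2, a relative of the same family, had -0.40 and -0.87 in Ts8, against 0.37 and 0.56 in Ts15 (-1.09, adjusted p = 0.011). It had 0.32 and 0.26 in Ts6, 0.30 and -0.12 in Ts11, and 0.00 and 0.09 in WT.
Tapbp, which encodes tapasin and holds class I molecules at the peptide transporter, differed by -0.91 (adjusted p = 0.025), and Tap2, the second transporter subunit, by -0.73 (adjusted p = 0.035). Bst2 had 2.08 and 2.49 in Ts8, against 3.29 and 3.33 in Ts15 (-1.03, adjusted p = 0.01), and 2.88 and 2.84 in Ts6. Ifitm1, an inhibitor of virus entry, had 1.91 and 1.39 in Ts8, against 2.51 and 2.61 in Ts15 (-0.91, adjusted p = 0.031). Its Ts6 arrays had 1.90 and 1.66, its Ts11 arrays 2.65 and 2.35, and its WT arrays 2.61 and 2.17. The summed fibroblast signal of 94.0 to 102 in Ts8 and 125 to 130 in Ts15 ran the same way.

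**Figure D5:**
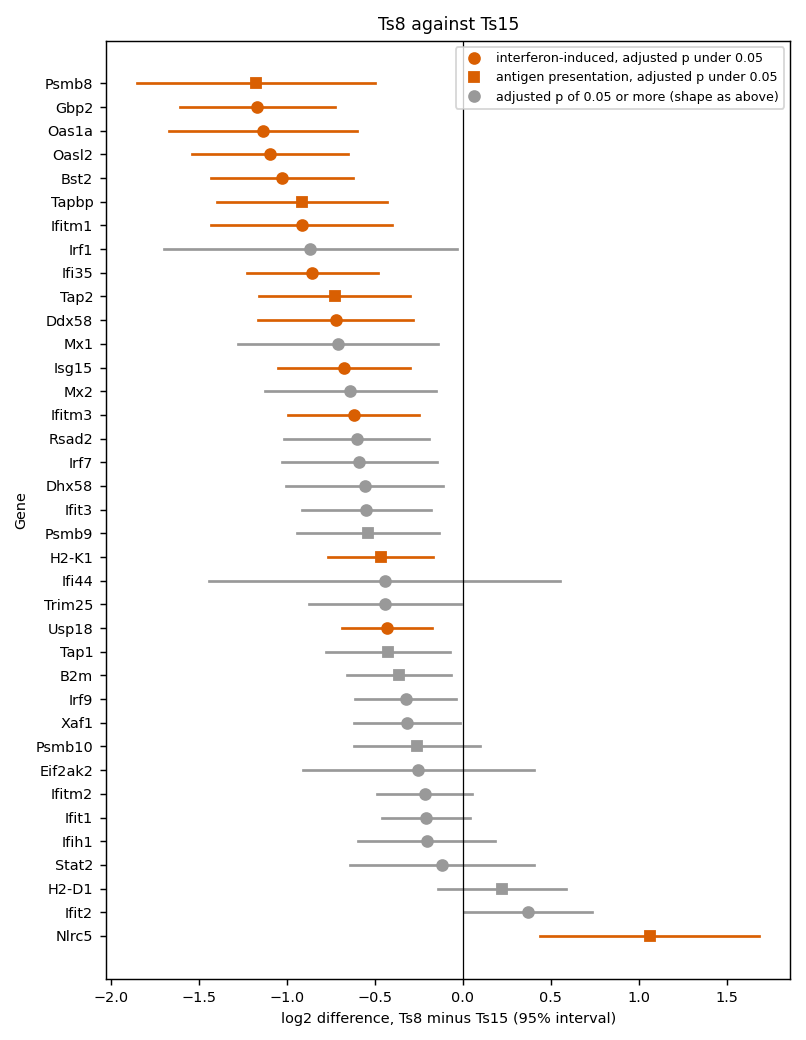
Log2 difference of Ts8 minus Ts15 (horizontal axis) with its 95% interval for each of the 37 members, coloured where the adjusted p was under 0.05, circles for interferon-induced and squares for antigen presentation genes. Values of 34 members lie below 0, and Nlrc5 is the only called member above it.

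Between Ts6 and Ts8, both on slide 1, 12 members were called, where 13.7% of all genes were called, 6.28% higher and 7.43% lower, and 11 were higher in Ts6. Both Ts6 arrays were above both Ts8 arrays in 23 of 37 members, against 27.3% of all genes. Of the 11, 10 were interferon-induced: Irf7 differed by 1.15, Oas1a and Usp18 by 1.05 each, and Mx1, the dynamin-like antiviral GTPase, by 1.02. Both sensors of viral RNA in the RIG-I family that were called, Ddx58 (RIG-I itself, 0.87) and Dhx58 (0.73), were higher in Ts6, and the third, Ifih1, was not called. The summed fibroblast signals of the 2 lines overlapped, at 91.0 and 103 in Ts6 and 102 and 94.0 in Ts8.

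Between Ts8 and Ts11, 8 members were called, where 7.81% of all genes were called, 4.52% higher and 3.3% lower, and 7 were lower in Ts8, among them Psmb8 (-1.40), Oas1a (-1.12) and Xaf1 (-0.97). Both Ts8 arrays were below both Ts11 arrays in 20 of 37 members (54.1%), against 21.9% of all genes. Ts6 and Ts15 differed in 6 members, where 18.2% of all genes were called, 10.4% higher and 7.86% lower. Usp18 (0.62) and Xaf1 (0.60) were higher in Ts6, and Nlrc5 (-0.95), Ifitm1 (-0.78), Tap1 (-0.69) and H2-K1 (-0.52) lower. Calls were made for 2 members between Ts6 and Ts11, where 7.27% of all genes were called (3.78% higher and 3.49% lower), Usp18 (0.57) and Psmb9 (0.80), both higher in Ts6. Another 2 were called between Ts11 and Ts15, where 15.0% of all genes were called (9.27% higher and 5.77% lower): Xaf1 was higher in Ts11 (0.65) and Bst2 lower (-0.94).

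Isg15, which encodes a ubiquitin-like protein joined to other proteins after interferon, was called neither against WT nor by the F-test. It had 2.00 and 2.20 in Ts15, against 1.49 and 1.66 in WT (0.53, adjusted p = 0.094), and its levels in Ts6 (1.42 and 1.71) and Ts11 (1.81 and 1.48) spanned those of WT. In Ts8 it had 1.48 and 1.37, so both Ts8 arrays were below every Ts15 array. Ifit1, which recognises viral RNA caps, was above both WT arrays on all 8 trisomic arrays, with -0.34 to -0.04 in the trisomic lines, against -0.53 and -0.40 in WT, and differences from WT of 0.21 to 0.41 (adjusted p = 0.061 to 0.28). Mx2, a relative of Mx1, also had its largest difference in Ts15 (0.80, adjusted p = 0.063), with 0.56 and 0.91 in Ts15, against 0.02 and -0.15 in WT. Ifit2 went the other way in Ts15, at -0.42 (adjusted p = 0.15).

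The remaining interferon-induced members stayed below the threshold against WT in all 4 lines. Irf9, the DNA-binding partner of the STATs, ranged from -0.33 in Ts8 to 0.23 in Ts6, and Eif2ak2, the kinase that stops translation on double-stranded RNA, from -0.42 in Ts8 to 0.32 in Ts6. Differences of Ifih1, Ddx58 and Dhx58, the RNA sensors, were -0.24, -0.52 and -0.05 in Ts8, and 0.30, 0.35 and 0.68 in Ts6. Ifitm2 and Ifitm3, relatives of Ifitm1, differed from WT by -0.42 to 0.20. Trim25, the ubiquitin ligase that activates RIG-I, differed by -0.06 to 0.39.

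In antigen presentation, the B2m signal was 3.42 and 3.54 for Ts6, 3.59 and 3.46 for Ts8, 3.79 and 3.52 for Ts11, and 3.85 and 3.92 for Ts15, against 3.83 and 3.69 in WT. Only the Ts15 arrays were above both WT arrays, and no difference was called. H2-K1 had 3.49 and 3.72 in Ts15, against 3.26 and 3.31 in WT (0.32, adjusted p = 0.18), and its differences in the other lines lay between -0.20 and -0.03. H2-D1 lay above WT in every line, by 0.09 (Ts6), 0.58 (Ts8), 0.41 (Ts11) and 0.36 (Ts15), none of them called. Tap2 and Tapbp were lowest in Ts8 (-0.54 and -0.60) and highest in Ts15 (0.18 and 0.31), and Psmb10 differed from WT by -0.31 to -0.05.

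Members were also set apart by the ISRE core in their promoter. The 13 interferon-induced members with a match had a median difference from WT of -0.42 in Ts8, 10 of them below 0, and the 10 without a match had -0.39, 9 of them below 0. The split describes members chosen by name and was not tested.

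Other genes of the pathway were read from lists of interferon, receptor and signalling genes, of nucleic acid sensors, of further interferon-induced genes and of further antigen presentation genes. Among 54 further interferon-induced genes 2 were called higher in Ts6 (Oas3, 0.83, and Zc3hav1, 0.51), 1 lower in Ts8 (Parp14, -1.13), 1 higher in Ts11 (Zc3hav1, 0.68), and in Ts15 2 higher (Ube2l6, 0.90, and Isg20, 0.72) and 1 lower (Tgtp1, -1.59, above background on 1 of 2 Ts15 arrays). The median difference of the 54 from WT was 0.05 in the Ts6 line, -0.37 in Ts8, near 0 in Ts11 and -0.03 in Ts15, so in Ts6 and Ts15 it was smaller than that of the interferon-induced members (0.24 and 0.25). Both Ts8 arrays were below both WT arrays in 33 of 54 (61.1%), against 24.4% of all genes. Both Ts15 arrays were above both WT arrays in 14 (25.9%, against 27.2% of all genes) and below in 17 (31.5%, against 30.0%). Of 22 ligand, receptor and signalling genes, 2 rose in Ts8: Irf8, an interferon regulatory factor on chromosome 8 (1.62), and Ifnk, a type I interferon (1.28). Ifnk lay near background, with -5.06 and -4.94 in Ts8, against -6.36 and -6.20 in WT. It was above background on 0 of 2 Ts6 arrays and on 1 of 2 arrays each in Ts11 and Ts15. Calls were 9.09% of the 22 in Ts8 (3.49% of all genes), and 4.55% in Ts6 and in Ts15 (9.04% and 7.43% of all genes). Ifng was called lower in Ts6 but was not well above background on either Ts6 array, so no level is given, Ifnl3 fell in Ts15 (-0.39), and none was called in Ts11.

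Of 19 sensors and adaptors only Irf3, which switches on interferon genes after virus sensing, was called against WT. That was 5.26% in Ts8 and in Ts11, against 3.49% and 8.13% of all genes. It had 1.89 and 1.66 in Ts8, against 2.40 and 2.56 in WT, and fell by 0.71 (adjusted p = 0.029), and in Ts11 it had 1.74 and 1.69 and fell by 0.77 (adjusted p = 0.01). Of 32 further antigen presentation genes, H2-Ab1, a class II chain, rose in Ts6 (1.34), and H2-Eb1 (0.81) and Rfxap (0.52), both of the class II system, rose in Ts11. Cd1d1, which presents lipids, fell in Ts8 (-0.82) and Ts15 (-0.98), as did the tapasin relative Tapbpl (-0.65 in Ts8 and -0.55 in Ts15). Calls against WT were 3.1% of the 32 in Ts6 (9.04% of all genes) and 6.25% in each of Ts8, Ts11 and Ts15. For these 3 lines 3.49%, 8.13% and 7.43% of all genes were called. None of 6 constitutive proteasome genes was called in any line. Psmb5, which PSMB8 replaces in the immunoproteasome, differed from WT by 0.08 in Ts8.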

How the data were processed

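Per the file headers, the deposited scanner intensity values came from Agilent Feature Extraction 10.7.3.1 on arrays placed on mm9, with no normalization between arrays. The authors' series table holds log2 values whose centring is not given in the sources used here. It served as an alternative. Values were log2 of the processed intensity minus each array's 75th percentile. A probe was kept if some group had it well above background on each of its 2 arrays, and 176 of 55681 probes with flagged spots were left out, which left 43056 probes and 28193 genes, each shown by its highest-mean probe. Groups were compared with limma 3.58.1 (R 4.3.3), 1 mean per group over all 10 arrays with 5 residual degrees of freedom, and Benjamini-Hochberg adjustment per comparison. The number of arrays limits the precision. The fit was tested on simulated data. Values on every array are given for members called against WT or by the F-test, and for the highest and lowest member per line. The members and lists were chosen with earlier results of these data known. Same-numbered replicates were checked for pairing (correlations of deviations -0.10 to 0.39) and share a number and a slide row. Alternatives are named in the closing section. The counts of other pathway genes and of marker genes include genes whose own values are not reported here.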

Additional observations from a re-analysis of the deposited data

Results flagged for a closer look

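Differences between trisomic lines that passed the test of the difference itself (limma, adjusted p under 0.05 over all genes) are listed here as log2 values, the first line named minus the other, with n = 2 arrays per line. The lines have no control of their own, so a difference between 2 lines is also the difference of their contrasts with WT. For Ts6 minus Ts8 the differences were Irf7 1.15, Irf9 0.56, Oasl2 0.92, Oas1a 1.05, Mx1 1.02, Xaf1 0.91, Ddx58 0.87, Dhx58 0.73, Usp18 1.05, Gbp2 0.78, Psmb9 0.80 and Nlrc5 -2.01. For Ts6 minus Ts11 the differences were Usp18 0.57 and Psmb9 0.80. For Ts8 minus Ts11 the differences were Irf7 -0.97, Oas1a -1.12, Xaf1 -0.97, Usp18 -0.48, Gbp2 -0.86, Ifi35 -0.95, Psmb8 -1.40 and Nlrc5 1.26. For Ts6 minus Ts15 the differences were Xaf1 0.60, Usp18 0.62, Ifitm1 -0.78, Tap1 -0.69, H2-K1 -0.52 and Nlrc5 -0.95. For Ts8 minus Ts15 the differences were Isg15 -0.67, Oasl2 -1.09, Oas1a -1.14, Ddx58 -0.72, Usp18 -0.43, Ifitm1 -0.91, Ifitm3 -0.62, Bst2 -1.03, Gbp2 -1.17, Ifi35 -0.85, Psmb8 -1.17, Tap2 -0.73, Tapbp -0.91, H2-K1 -0.46 and Nlrc5 1.06. For Ts11 minus Ts15 the differences were Xaf1 0.65 and Bst2 -0.94.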

How the results depend on the processing

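None of the called differences of a member from WT changed sign under any alternative run. Of the values of named members under alternatives, 869 stayed on their side of the threshold, 58 lost and 8 gained a call. Most of the 869 were values of differences not called in the main fit, which had no call to lose. In Ts8, Gbp2, Psmb8 and Nlrc5 each kept their call in 7 of 14 alternatives, and Xaf1 in 6. Without the filter on dim probes, which adds genes to the adjustment, calls against WT were 2 in Ts6 and 0 in Ts8, the F-test called 9 and the pairs 24. With slide 1 only, which drops the Ts15 arrays, they were 2 in Ts6 and 0 in Ts8, with 7 by the F-test and 14 over 3 pairs. With passage as a covariate, which takes 1 residual degree of freedom, they were 1 in Ts6, 0 in Ts8 and 0 in Ts15. Passage and WT cannot be fully told apart, since the WT arrays had passages 18 and 20 and only Ts6 replicate 2 reached 18. Over all genes this fit called 6 for Ts8 and WT, where the main fit called 984. For Ts6 and Ts8 it called 3766, where the main fit called 3866. A fit of only the arrays compared, with 2 residual degrees of freedom, gave 0 in Ts8 and 0 in Ts15. In Ts11, against 0, normexp background correction gave 1, the filter for all 10 arrays 1 and the authors' series table gave 3; the cause was not tested. Leaving out each array in turn gave 1 to 4 calls in the Ts6 line, 0 to 8 in Ts8, 0 to 2 in Ts11 and 0 to 1 in the Ts15 line, 6 to 19 by the F-test and 16 to 49 over the pairs. The F-test gave 7 without either Ts6 array or Ts15 replicate 1, and 6 without Ts8 replicate 2 or Ts15 replicate 2. The pairs gave 20 and 23 without Ts6 replicate 1 or 2, and 20 and 17 without Ts15 replicate 1 or 2. Leaving an array out leaves a lone sample that is assumed to vary like the other groups.

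With the replicate number as a block, calls were 3 in the Ts6 line, 3 in Ts8, 0 in Ts11 and 2 in the Ts15 line, 16 by the F-test and 48 over the pairs. Same-numbered arrays did not deviate together in every pair of groups (0.39 for Ts8 and Ts11, -0.10 for WT and Ts11). The block was not treated as a pairing by design, and it is also the slide row of the arrays. Groups of 2 arrays, 1 line per trisomy and Ts15 alone on its slide limit all of these results.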
